A study of Mus musculus with 6 samples.

Results

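Immune checkpoint ligands are cell-surface or secreted proteins through which a tumor cell can dampen, or in some cases stimulate, the T cells, NK cells and macrophages that meet it. The 10 genes described here were taken by their Ensembl identifiers: the B7 family members Cd274, Pdcd1lg2, Cd80, Cd86, Cd276 and Vtcn1, the nectin-like protein Pvr, the ecto-enzyme Nt5e, the galectin Lgals9 and the macrophage signal Cd47. All 10 had a value, among 17204 genes in all. The best known ligands of the B7 family bind receptors of the CD28 family on T cells, and PD-L1, the product of Cd274, is known to rise on epithelial tumor cells exposed to interferon-gamma from T cells. The cells measured here were grown alone in culture, so the values describe the tumor cells without added T cells.

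Both groups were mouse cutaneous squamous cell carcinoma (SCC) cells of the FVB strain, from chemically induced tumors of K14CreER FAKflox/flox animals, in which a tamoxifen-inducible Cre is driven by the keratin 14 promoter. SCC FAK-/- is a single clone in which hydroxytamoxifen treatment had deleted the gene of focal adhesion kinase (FAK), a tyrosine kinase that acts downstream of integrins. SCC FAK-wt was made from that clone by retroviral transduction with wild-type FAK, and was kept in hygromycin. There were 3 biological replicates of each, with 1 Affymetrix mouse genome array per replicate, and p-values measure the spread between these samples. The re-expression of FAK, the transduction and the drug selection cannot be told apart, and how far other clones would differ was not tested. The expression of FAK itself and of markers of squamous cells, leukocytes and fibroblasts was not analysed here, because only the identifiers of the 10 ligands were paired with gene symbols.

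The values are log2 expression from the Robust Multi-array Average (RMA) method, and a difference of 1 is a 2-fold change. The signal of a gene depends on its probes as well as on its transcript, so levels are compared between the cell lines and not between genes. Array medians over all genes ranged from 5.90 to 5.96 for SCC FAK-wt and from 5.93 to 5.97 for SCC FAK-/- cells. Relative to all genes on these arrays, the signals of Cd86, Pdcd1lg2 and Cd274 were dim, at the 10.4th, 14.6th and 28.3rd percentile, and those of Cd276 and Cd47 were bright, at the 81.1st and 80.2nd. Whether the dim signals lie above background could not be read from the values, and RMA understates fold changes near background. In cells in bulk, fewer cells that express a gene and less RNA per cell cannot be told apart.

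To ask whether FAK status went with the expression of these ligands in SCC cells, the 3 SCC FAK-wt arrays were compared with the 3 SCC FAK-/- arrays. Nt5e was lower in SCC FAK-wt cells at the threshold of an unadjusted p under 0.01 (limma, two-sided), and was the only ligand of the 10 to pass it in the fit to all 6 arrays. No ligand was higher at that threshold (0 of 10), in the limma fit or under any of 14 alternative settings. Over all genes, 3.66% were lower and 3.19% were higher by the same rule, and at these shares a single call among 10 genes is not a result about the ligands as a group. After Benjamini-Hochberg adjustment over all 17204 genes, 0 of the 10 ligands passed an adjusted p under 0.05, against 1.92% of all genes, and the smallest adjusted p among them was 0.120 (limma, Nt5e). That count was also 0 under each of the 14 alternatives, and 4 ligands had an unadjusted p under 0.05.

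At an unadjusted p under 0.05 (limma), 4 ligands were lower in SCC FAK-wt cells and 0 were higher, against 7.74% and 7.76% of all genes. The 4 were Nt5e, Pvr, Pdcd1lg2 and Cd276. These counts turned on single arrays. Without SCC FAK-wt replicate 3, 2 ligands were lower (Nt5e and Pvr) and 1 was higher (Cd274). Without SCC FAK-/- replicate 3, 2 were lower (Nt5e and Pdcd1lg2) and 0 higher. The shares of all genes at this threshold are given for the fit to all 6 arrays only, so these reduced counts have no share beside them. Over the 6 limma fits that each left out 1 array, Nt5e was lower by this rule in 6, Pdcd1lg2 in 5, Pvr in 4 and Cd276 in 1. In the 4 genes, with all arrays, the SCC FAK-wt arrays all lay below the SCC FAK-/- arrays, a separation found in 10.0% of all genes. The opposite separation was found in 0 of the 10 ligands and in 11.5% of all genes. The fitted difference was below 0 in 7 ligands, among them Lgals9, whose sign turned after median centering of the arrays, and above 0 in 3. Its median over the 10 was -0.16, beside 0.016 over all genes, and was -0.038 without SCC FAK-/- replicate 2 and -0.29 without the dimmest 33.3% of genes, which left out 3 of the ligands. Its median size without regard to sign was 0.25, beside 0.14. With 3 arrays against 3, an exact permutation test of any single gene cannot give a two-sided p below 0.1.

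**Figure D1:**
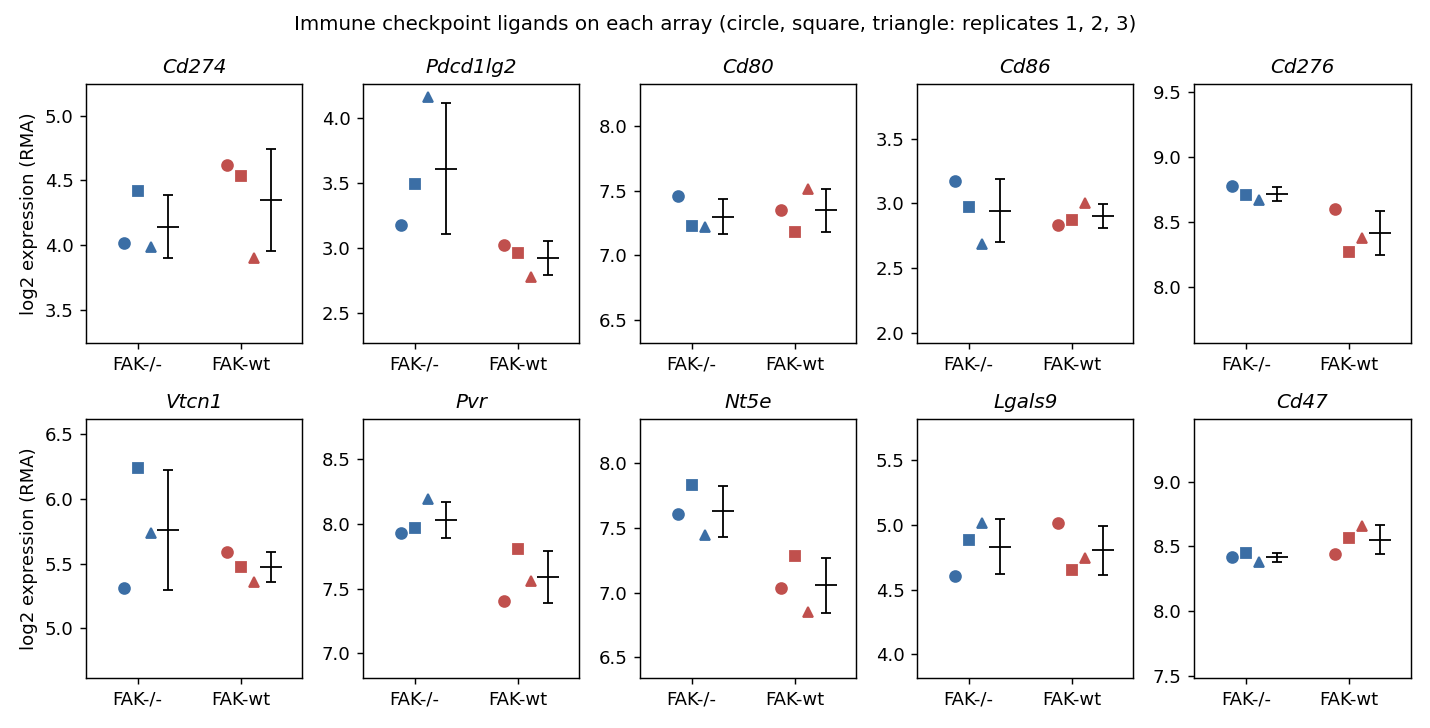
Log2 expression (RMA, y axis, each panel spanning the same number of log2 units at the gene's own level) of the 10 ligands on each SCC FAK-/- array (blue) and SCC FAK-wt array (red), with circles, squares and triangles for replicates 1, 2 and 3, and the mean and SD of each cell line in black. The red points lie wholly below the blue ones for Pdcd1lg2, Cd276, Pvr and Nt5e, and the points of the cell lines overlap for the other 6.

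Nt5e (ENSMUSG00000032420) encodes CD73, the surface enzyme that converts extracellular AMP to adenosine, which suppresses T cells through adenosine receptors. Its log2 expression was 7.04, 7.28 and 6.85 in SCC FAK-wt and 7.61, 7.83 and 7.44 in SCC FAK-/- cells. Every SCC FAK-wt array was below every SCC FAK-/- array, by a gap of 0.16 between the nearest arrays. The mean was 7.06 ± 0.22 (SD, n = 3) in SCC FAK-wt and 7.63 ± 0.19 (SD, n = 3) in SCC FAK-/-, a log2 difference of -0.57 (standard error 0.15, 95% interval -0.93 to -0.21, limma adjusted p = 0.120). On the linear scale Nt5e was 1.49-fold higher in SCC FAK-/- cells, with an interval of 1.16 to 1.90. The call at an unadjusted p under 0.01 was lost without SCC FAK-wt replicate 1 (log2 difference -0.56), SCC FAK-wt replicate 3 (-0.47), SCC FAK-/- replicate 1 (-0.58) or SCC FAK-/- replicate 2 (-0.47), and in an ordinary linear model without moderated variances (-0.57). Leaving out each array in turn gave differences from -0.68 to -0.47.

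Pvr (ENSMUSG00000040511) encodes CD155, a nectin-like adhesion protein bound by the inhibitory receptors TIGIT and CD96 and by the activating receptor DNAM-1 on T and NK cells. Its log2 expression was 7.41, 7.81 and 7.56 in SCC FAK-wt and 7.93, 7.97 and 8.19 in SCC FAK-/- cells. The arrays of the cell lines did not overlap, with 0.12 between the nearest of them. The log2 difference was -0.44 (95% interval -0.76 to -0.12, limma adjusted p = 0.177), which corresponds to 1.35-fold higher expression in SCC FAK-/- cells. Pvr did not pass the unadjusted threshold of 0.01 in that fit. It passed under quantile normalization (log2 difference -0.45) and without SCC FAK-wt replicate 2 (-0.55).

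Cd274 (ENSMUSG00000016496) and Pdcd1lg2 (ENSMUSG00000016498) encode PD-L1 and PD-L2, the ligands of the inhibitory T cell receptor PD-1. Cd274 measured 4.62, 4.54 and 3.90 in SCC FAK-wt and 4.02, 4.42 and 3.99 in SCC FAK-/- cells. The arrays overlapped, and SCC FAK-wt replicate 3 was the lowest of all 6 while the other SCC FAK-wt arrays were the highest. The log2 difference of 0.21 had a 95% interval from -0.30 to 0.72 (limma adjusted p = 0.734), an interval from 1.23-fold lower to 1.65-fold higher in SCC FAK-wt cells that holds for the RMA values and, for a dim signal, does not bound the change of the transcript. Without SCC FAK-wt replicate 3 the difference was 0.43, with an unadjusted p under 0.05 but not under 0.01, and without SCC FAK-wt replicate 1 it was 0.076, past neither threshold.

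The arrays of the cell lines did not overlap for Pdcd1lg2, whose signal was dim. Its log2 expression was 3.02, 2.96 and 2.78 in SCC FAK-wt and 3.18, 3.49 and 4.17 in SCC FAK-/- cells. The SCC FAK-/- arrays were widely spread, with an SD of 0.50 (n = 3) against 0.13 (n = 3) in SCC FAK-wt, and SCC FAK-/- replicate 3 stood above the other SCC FAK-/- arrays. The log2 difference was -0.69 (95% interval -1.25 to -0.13, limma adjusted p = 0.223), or 1.61-fold higher in SCC FAK-/- cells. This was a larger difference than that of Nt5e in the unweighted fit to all 6 arrays, but a smaller one with array weights (-0.60 against -0.62) and without SCC FAK-/- replicate 3 (-0.41 against -0.66). Without SCC FAK-/- replicate 1 the difference was -0.91, past the unadjusted threshold.

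Cd80 (ENSMUSG00000075122) and Cd86 (ENSMUSG00000022901) are best known on antigen-presenting cells, where they co-stimulate T cells through CD28 and are bound by the inhibitory receptor CTLA-4. Cd80 measured 7.35, 7.18 and 7.51 in SCC FAK-wt and 7.46, 7.23 and 7.22 in SCC FAK-/- cells. The arrays were intermixed, and the log2 difference of 0.049 had a 95% interval from -0.25 to 0.35 (limma adjusted p = 0.908). Cd86, dim on every array, measured 2.83, 2.87 and 3.01 in SCC FAK-wt and 3.17, 2.97 and 2.69 in SCC FAK-/- cells. These also overlapped, with a difference of -0.042 and an interval from -0.38 to 0.29 (limma adjusted p = 0.934). Both intervals lie within a 1.5-fold change of the RMA values in either direction.

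Cd276 (ENSMUSG00000035914) and Vtcn1 (ENSMUSG00000051076) encode B7-H3 and B7-H4, B7 family members that are frequently expressed on carcinoma cells. Cd276 measured 8.60, 8.26 and 8.38 in SCC FAK-wt and 8.78, 8.71 and 8.67 in SCC FAK-/- cells. The cell lines did not overlap, but only 0.068 separated the nearest arrays. The log2 difference was -0.30 (95% interval -0.58 to -0.029, limma adjusted p = 0.272), a 1.23-fold higher level in SCC FAK-/- cells. With an array left out it was -0.40 to -0.23, with an unadjusted p under 0.05 only without SCC FAK-wt replicate 1. Vtcn1, a known inhibitor of T cell responses, measured 5.59, 5.47 and 5.36 in SCC FAK-wt and 5.31, 6.24 and 5.73 in SCC FAK-/- cells. The SCC FAK-/- arrays of Vtcn1 spanned both the lowest and the highest value of all 6, and the difference of -0.29 (95% interval -0.81 to 0.24, limma adjusted p = 0.625) did not exceed the SD of 0.46 among them. It was -0.048 without SCC FAK-/- replicate 2 and -0.51 without SCC FAK-/- replicate 1, where its unadjusted p was under 0.05 and its arrays did not overlap.

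Lgals9 (ENSMUSG00000001123) encodes galectin-9, a glycan-binding protein that can engage the inhibitory receptor TIM-3 on T cells. It measured 5.02, 4.65 and 4.74 in SCC FAK-wt and 4.60, 4.88 and 5.01 in SCC FAK-/- cells. The arrays were intermixed, and the log2 difference was -0.028 (95% interval -0.38 to 0.32, limma adjusted p = 0.958). Cd47 (ENSMUSG00000055447), which restrains phagocytosis through SIRP-alpha on macrophages, measured 8.44, 8.57 and 8.65 in SCC FAK-wt and 8.42, 8.45 and 8.38 in SCC FAK-/- cells. The cell lines overlapped slightly, by 1 array of each, and after median centering of the arrays every SCC FAK-wt array lay above. As deposited, the log2 difference of 0.14 had an interval from -0.10 to 0.37 (limma adjusted p = 0.604). A change in Cd47 of more than 1.30-fold upward or 1.07-fold downward in SCC FAK-wt cells lies outside that interval. With an array left out, the log2 difference of Cd47 was 0.086 to 0.19, and it was smallest without SCC FAK-wt replicate 3.

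The size of change that could have been called differed between the ligands, because their replicate spread differed. At an unadjusted p under 0.01 the smallest callable log2 difference was 0.35 for Cd47, 0.40 for Cd276, 0.44 for Cd80 and 0.47 for Pvr. It was 0.75 for Cd274, 0.77 for Vtcn1 and 0.83 for Pdcd1lg2. The 95% interval lay wholly within a 2-fold change in 9 of the 10 ligands, with Pdcd1lg2 as the exception, and in 91.0% of all genes. It lay wholly within a 1.5-fold change in 5 ligands, namely Cd80, Cd86, Cd276, Lgals9 and Cd47, and in 66.6% of all genes.

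**Figure D2:**
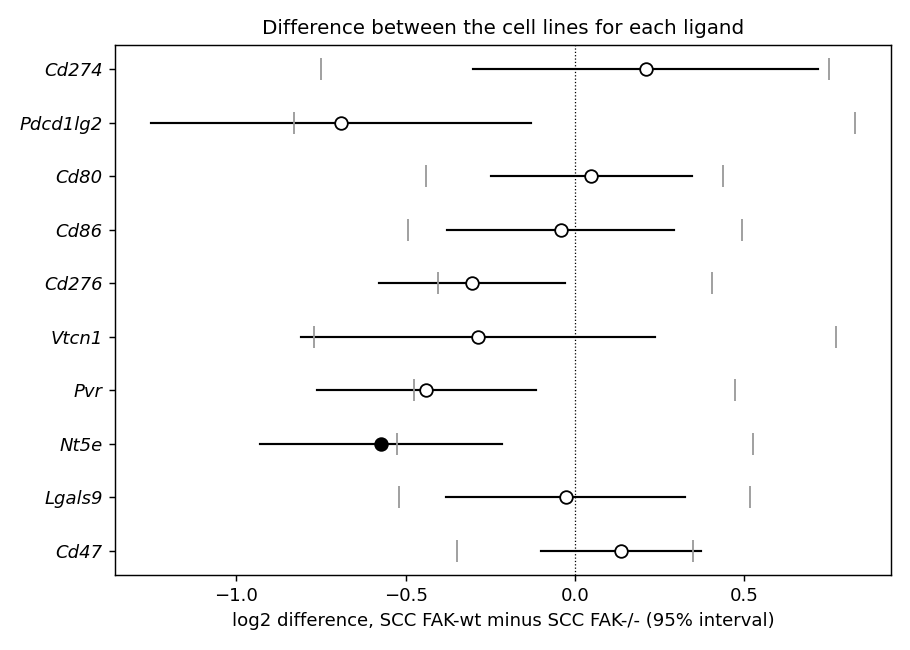
Log2 difference of each ligand, SCC FAK-wt minus SCC FAK-/- (x axis), as points with 95% intervals from limma on 3 arrays per cell line, filled where the unadjusted p was under 0.01, with grey ticks at the smallest difference that this threshold could call. Nt5e at -0.57 is the only filled point, and the intervals of Pdcd1lg2, Cd276 and Pvr also lie below 0.

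Cd274 and Pdcd1lg2 are neighbors on chromosome 19 with 0 protein-coding genes between them in the RefSeq annotation of GRCm38.p6, and their fitted differences had opposite signs, with neither past the unadjusted threshold of 0.01. The 250 bases before the RefSeq gene start, available for 8 of the 10 ligands by symbol, were searched on both strands for TTCNNNGAA (the interferon-gamma activated site, GAS), GAAANNGAA (the core of an interferon-stimulated response element, ISRE) and TGANTCA (AP-1). The ISRE letters occurred in Cd274 and Lgals9, against 7.13% of 32851 RefSeq promoters, and the AP-1 letters in Cd80, against 6.75%. The GAS letters occurred in 0 of the 8, against 7.02%. No sequence held more than 1 match, so none overlapped. A match is a description of letters and not of binding. The upstream sequences of both PD-1 ligand genes and of Nt5e, the ligand that passed the unadjusted threshold, are given 5′ to 3′ on the strand of the gene (GRCm38.p6, plus strand in all 3), with the searched letters in capitals. They lie at chr19:29367188-29367437 for Cd274, chr19:29410669-29410918 for Pdcd1lg2 and chr9:88327359-88327608 for Nt5e. The match in Cd274 reads the ISRE letters on the opposite strand, 76 to 68 bases before the gene start, and the other sequences hold none.
Cd274: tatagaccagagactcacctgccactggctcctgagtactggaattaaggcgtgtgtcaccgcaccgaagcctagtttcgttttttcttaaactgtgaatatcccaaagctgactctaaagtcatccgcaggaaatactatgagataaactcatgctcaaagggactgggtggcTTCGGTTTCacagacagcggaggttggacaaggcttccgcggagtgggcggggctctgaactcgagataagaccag
Pdcd1lg2: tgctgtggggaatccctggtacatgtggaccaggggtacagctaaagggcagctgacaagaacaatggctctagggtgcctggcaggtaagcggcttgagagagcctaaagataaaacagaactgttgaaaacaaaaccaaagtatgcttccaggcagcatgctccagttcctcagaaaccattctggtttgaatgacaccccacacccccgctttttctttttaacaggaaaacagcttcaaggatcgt
Nt5e: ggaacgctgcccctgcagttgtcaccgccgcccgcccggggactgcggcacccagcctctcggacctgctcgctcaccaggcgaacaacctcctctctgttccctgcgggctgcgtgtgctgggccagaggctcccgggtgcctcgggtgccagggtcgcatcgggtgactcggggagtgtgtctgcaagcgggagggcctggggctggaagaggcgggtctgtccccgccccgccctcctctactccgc
The G and C content was 72.0% in the Nt5e sequence, 50.4% in that of Cd274 and 48.4% in that of Pdcd1lg2.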

How the data were processed

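Total RNA of 3 SCC FAK-wt and 3 SCC FAK-/- samples was amplified from a small input with a whole-transcriptome kit, biotin-labelled and hybridized to Affymetrix mouse genome arrays. From the scanned arrays the authors obtained 1 value for each Ensembl gene, using RMA (affy). The deposited values were read as log2 from their range (1.34 to 13.76), and the probe mapping, package version and background variant are not given in the sources used here. Groups and replicate numbers came from the sample titles. No 2 arrays held identical values (0 pairs).

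The cell lines were compared with limma 3.58.1 in R 4.3.3 (lmFit, eBayes, two-sided, no covariate, no filter) over all 17204 genes. Calls were made at an unadjusted p under 0.01 and at a Benjamini-Hochberg adjusted p under 0.05. The study gives a threshold of 0.01 for its genes but names neither the test nor whether p was adjusted. The fit was tested on simulated data, but the outcome is not given here and no result rests on it. All 10 ligands are named. The ligands and settings were chosen with earlier results of these data known. Since 0 of 17204 identifiers were found in the reference table of symbols, lists of other ligands, receptors, regulators and cell markers, and the nearest named genes by correlation, were not analysed here. Promoter sequences are from RefSeq (GRCm38.p6). Array number limits the precision. Alternatives were the moderation, scaling, array weights, a filter on dim genes, a replicate block and leaving out each array.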

Additional observations from a re-analysis of the deposited data

How the results depend on the processing

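No ligand was higher at an unadjusted p under 0.01 (0), and none passed an adjusted p under 0.05 (0), under any of the 14 alternatives (limma, or an ordinary linear model where variances were not moderated). The number lower (1) was 0 without moderation, 2 under quantile normalization, and 0 to 2 with an array left out. Nt5e passed the unadjusted threshold in 9 of 14 alternatives. Over all 14, including those where it did not pass, its adjusted p ran from 0.0874 to 0.297 (limma or the ordinary model). The counts of ligands at an unadjusted p under 0.05 and of ligands with separate arrays, and their alternatives, were chosen after seeing the data. At an unadjusted p under 0.05, the number lower (4) was 2 to 4 and the number higher (0) was 0 to 1 with an array left out. Without moderation or the dimmest genes, 3 were lower. Ligands with all SCC FAK-wt arrays below (4) numbered 3 without the dimmest genes and 4 to 5 with an array left out. Those with all above (0) numbered 1 after median centering (Cd47) and 0 to 1 with an array left out (Cd47 or Cd274). Full separation is easier to reach with an array left out, so those counts cannot be set against the counts with all 6 arrays. Shares of all genes for this separation and for an unadjusted p under 0.05 are given for the main comparison only. The median difference of the ligands was -0.29 without the dimmest 33.3% of genes, which left out Cd274, Pdcd1lg2 and Cd86 by construction, and -0.24 to -0.038 with an array left out. Only small differences changed sign: Lgals9 to 0.0048 after median centering and 0.028 with array weights, and, with an array left out, Lgals9 (-0.14 to 0.063), Cd80 (-0.033 to 0.13) and Cd86 (-0.17 to 0.073). Where not stated, the cause was not tested. Over all genes, an adjusted p under 0.05 was reached by 330 as reported, 549 with trended robust variances, 39 without moderation, 160 with the block and 108 to 188 with an array left out. An unadjusted p under 0.01 in the higher direction was reached by 549, and by 329 without SCC FAK-/- replicate 2. A limma fit with a replicate block called 1 ligand lower (Nt5e, difference -0.57, adjusted p = 0.107). Deviations of same-numbered arrays correlated at -0.0338 to 0.0280 across genes, and not every array matched its own number best. Shared handling cannot be judged from this. The dimmest ligands, Cd86 and Pdcd1lg2, are limited by signal over background, which the deposited values do not give.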

Other observations

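Ligands of the same receptor were compared within each array, a comparison of 2 pairs chosen after the values were seen. For the PD-1 ligands, the log2 value of Cd274 minus that of Pdcd1lg2 was 1.59, 1.57 and 1.12 in SCC FAK-wt and 0.84, 0.93 and -0.18 in SCC FAK-/- cells. Every SCC FAK-wt array lay above every SCC FAK-/- array, with a log2 difference of 0.90 between the cell lines. An exact permutation test (two-sided) gave p = 0.1 (0.2 adjusted over the 2 pairs), the smallest it can give with these arrays, and nothing is read from it. Most of it was the difference of Pdcd1lg2 alone (-0.69), whose dim signal could not be set against background, while that of Cd274 alone was 0.21 with overlapping arrays. Without SCC FAK-/- replicate 3 it was 0.54, and leaving out each of the other arrays gave 0.82 to 1.10. For the ligands of CD28 and CTLA-4, Cd86 minus Cd80 ranged from -4.52 to -4.31 in SCC FAK-wt and from -4.53 to -4.26 in SCC FAK-/- cells. These overlapped, with a log2 difference of -0.091 (exact permutation test, two-sided, p = 0.4, adjusted 0.4). With an array left out that difference was -0.18 to -0.042, and Cd86 was dim on every array. The sizes of these values within an array also reflect the probes, and only their differences between the cell lines can be read.

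The pooled replicate SD was above the median of all genes (0.17 log2 units) in 7 of 10. It was 0.33 for Cd274, 0.37 for Pdcd1lg2 and 0.34 for Vtcn1, and 0.081 for Cd47. The array farthest from the mean of its own cell line was not the same for these genes: SCC FAK-wt replicate 3 for Cd274, where it lay close to the lower SCC FAK-/- arrays, SCC FAK-/- replicate 3 for Pdcd1lg2 and SCC FAK-/- replicate 2 for Vtcn1.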
